A study of Homo sapiens with 27 samples.

Results

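The comparison described here was CPSF1 knockdown in LNCaP cells, a hormone-sensitive prostate cancer line. The 9 LNCaP libraries, of 27 libraries in the series, were taken by their cell line label, and comprised 3 with CTRL sh, 3 with CPSF1 sh1 and 3 with CPSF1 sh2. The hormone-insensitive lines LNCaP95 and 22Rv1 had 9 libraries each and served only to show where LNCaP differed. Cells of every group were infected with lentivirus that carries an shRNA, either a non-silencing hairpin (CTRL sh) or a hairpin to CPSF1, so the control cells also held the vector and had passed selection. LNCaP cells went through 2 rounds of puromycin at 2 µg/mL, were expanded, plated at 500000 cells in each well and kept for 72 h in RPMI with serum before total RNA was taken for stranded mRNA libraries. This makes the comparison a stable and partial knockdown in selected, growing cells, with no time course. The methods call the replicates biological, and neither they nor the labels say how the 3 cultures of a group were separated, so p-values measure only the spread between these libraries.

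CPSF1 is the large scaffold subunit of the cleavage and polyadenylation specificity factor, the complex that finds the poly(A) signal of a pre-mRNA and cuts it so that a poly(A) tail can be added. Nearly every mRNA passes through this step, and the site chosen sets where the transcript ends. LNCaP cells came from a lymph node metastasis of a prostate adenocarcinoma, depend on the androgen receptor and carry intact p53. The question asked of the data was which programmes of gene function rose and which fell in this line when CPSF1 was lowered.

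CPSF1 itself (chromosome 8, 145618444 to 145634753, minus strand, of GRCh37) measured 150.3, 149.7 and 152 CPM with CTRL sh, 108, 94.4 and 100.3 CPM with CPSF1 sh1 and 98.2, 89.6 and 86.2 CPM with CPSF1 sh2, where CPM, the unit of level, are counts relative to the library total after TMM scaling. All 6 CPSF1 sh libraries lay below all 3 CTRL sh libraries. The log2 fold change, with its standard error (SE), was -0.65 (SE 0.06, adjusted p = 1.68e-07) by edgeR's quasi-likelihood test, which gave every adjusted p for the knockdown below. The hairpins differed by -0.14 (SE 0.05, adjusted p = 0.0773), sh2 minus sh1.

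Total counts on genes were 8515624 to 13567312 per library. Genes above 2 CPM in all 9 libraries were tested, which gave 11096 of 20268 genes. At an adjusted p below 0.05, 3451 genes were higher with CPSF1 sh (31.1% of those tested) and 3441 were lower (31%), and over 2-fold these were 172 (1.55%) and 229 (2.06%). These shares are the background against which each list is read. The median log2 fold change of all tested genes was -0.00036. TMM scaling centres the bulk of genes, so this median and the near-even split are in part set by it. Every rise and fall is relative to the other genes of a library, and a change in total mRNA per cell would not show. Luminal prostate markers were abundant, with a summed level of 10 markers of 6073 to 6193 CPM with CTRL sh and 4770 to 4994 CPM with CPSF1 sh. Markers of other cell types were lower in level but not all absent. The summed level of 4 basal markers was 1.59 to 2.19 CPM with CTRL sh and 4.20 to 6.51 CPM with CPSF1 sh, mostly from KRT14, with TP63 at 0 counts. That of 7 fibroblast and smooth muscle markers was 44.2 to 50.6 and 76.5 to 93.0 CPM, mostly from ACTA2, COL1A1 and COL3A1, with COL1A2 and DCN at 0 counts. That of 2 endothelial markers was 22.3 to 28.0 and 9.29 to 12.6 CPM, from VWF, with CDH5 at no more than 1 count, and that of 5 leukocyte markers was 0.0839 to 0.187 and 1.07 to 1.94 CPM, mostly from CD14, with CD3E and PTPRC at no more than 3 counts in any library. ACTA2 was higher (1.76) and VWF lower (-1.23) with CPSF1 sh. The part of these markers in the results was not tested. Mitochondrial genes took 1.71 to 2.30% of counts, and their counts grew little with depth.

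Lists of genes by function, 39 in number with 1429 genes, were read against this background. Of their members, 1271 were tested, 479 were higher and 349 were lower. The highest medians were those of p53 targets, heat shock proteins and the chaperonin, ribosome biogenesis factors and the proteasome. Among lists with more members lower than the background were immediate early genes, the integrated stress response, in which 19 of 25 members differed between the hairpins, chromatin regulators and cytosolic ribosomal proteins. Up to 4 members of each list are named by a rule that requires no overlap between knockdown and control libraries. For these members the separation follows from the rule. The plot of all lists shows both the share called and the median of each library.

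**Figure D1:**
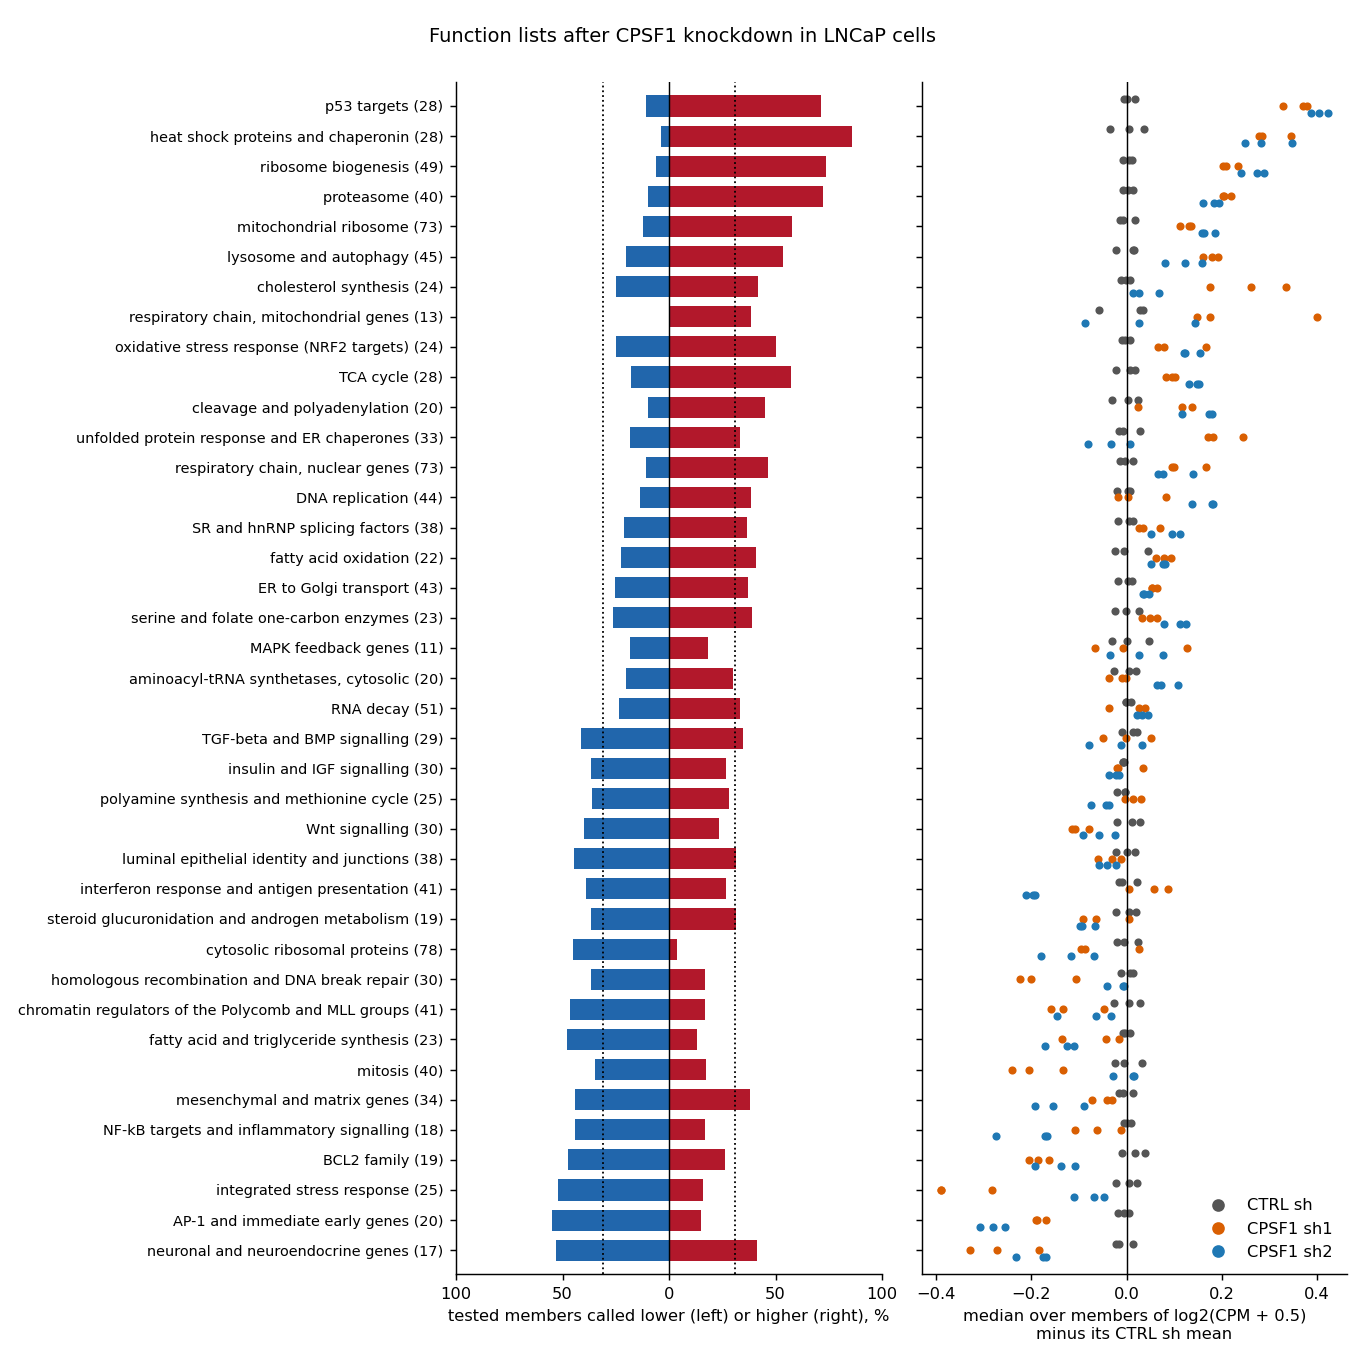
Left, percent of tested members of each function list called lower (blue) or higher (red) with CPSF1 sh, with the number tested in brackets and dotted lines at the shares of all genes, 31% lower and 31.1% higher. Right, median over members of log2(CPM + 0.5) minus its CTRL sh mean, a point for each of the 9 libraries, with the lists sorted by their fitted median. The chaperone list has 85.7% of members higher and the ribosomal protein list 3.85%.

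Protein folding factors rose together. In the list of heat shock proteins and the chaperonin, 24 of 28 tested members were higher and 1 was lower, with a median log2 fold change of 0.30. Heat shock proteins hold or refold other proteins, and the chaperonin CCT is the ring that folds actin and tubulin. All 8 CCT subunits were higher, by log2 0.10 to 0.49. CCT5, a ring subunit, measured 382, 365 and 398 CPM with CTRL sh, 502, 485 and 488 CPM with CPSF1 sh1 and 516, 511 and 517 CPM with CPSF1 sh2. No CPSF1 sh library overlapped the controls, and CCT5 rose by 0.40 (SE 0.04, adjusted p = 3.28e-07). HSPH1, an exchange factor for HSP70, measured 142, 127 and 136 CPM with CTRL sh, 225, 225 and 212 CPM with CPSF1 sh1 and 239, 221 and 220 CPM with CPSF1 sh2. It was higher in all 6 knockdown libraries, with a log2 fold change of 0.73 (SE 0.05, adjusted p = 6.40e-09). HSPB8, a small heat shock protein that works with the co-chaperone BAG3, had the largest rise of the list, from 2.25, 2.43 and 2.72 CPM with CTRL sh to 18.2, 14.9 and 15.6 CPM with CPSF1 sh1 and 12.2, 13.1 and 13.2 CPM with CPSF1 sh2. The lowest knockdown library was well above the highest control, and the change was 2.54 (SE 0.16, adjusted p = 8.70e-09). DNAJB6, which keeps aggregation-prone proteins soluble, rose by 0.65 and HSPA4, another exchange factor, by 0.58 on the log2 scale. The stress-inducible HSPA1A did not share this and overlapped between groups, with a log2 fold change of -0.08 (SE 0.15, adjusted p = 0.683); its sequence is nearly the same as that of HSPA1B, so reads may be split between them.

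Proteasome genes were also mostly higher: 29 of 40 tested members were higher and 4 were lower, with a median log2 fold change of 0.21. The proteasome is a barrel, the 20S core, with a 19S cap that binds and unfolds ubiquitin-tagged proteins. Of the 19S genes, 17 of 21 were higher and 2 lower (median 0.29), and of the 20S genes 10 of 14 were higher and 1 lower (median 0.17). ADRM1, a ubiquitin receptor of the cap, measured 109, 99.1 and 102 CPM with CTRL sh, 159, 150.03 and 140.3 CPM with CPSF1 sh1 and 148, 140.2 and 131 CPM with CPSF1 sh2. The knockdown libraries were all higher, with a log2 fold change of 0.48 (SE 0.06, adjusted p = 3.23e-06). PSMD1, the large scaffold of the cap, went from 147, 146 and 148 CPM with CTRL sh to 189, 188 and 189 CPM with CPSF1 sh1 and 195, 196 and 196 CPM with CPSF1 sh2. Its spread within groups was small, and its log2 fold change was 0.38 (SE 0.03, adjusted p = 1.63e-07). Of the 3 genes of the 11S activator, 1 was higher and 1 lower. PSME1, the lower of them and interferon-induced, measured 138, 125 and 136 CPM with CTRL sh, 94.1, 97.1 and 97.4 CPM with CPSF1 sh1 and 79.98, 74.9 and 78.4 CPM with CPSF1 sh2. Every knockdown library was lower, with a log2 fold change of -0.62 (SE 0.08, adjusted p = 8.04e-06). Of the interferon-induced core subunits, PSMB10 was the member that passed the level filter, with a log2 fold change of 0.24 (SE 0.09, adjusted p = 0.0361).

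Factors that build ribosomes rose while ribosomal proteins were lower more often than higher. In the ribosome biogenesis list, 36 of 49 tested members were higher and 3 were lower, with a median log2 fold change of 0.25. RRP12, needed for export of both ribosomal subunits, measured 77.6, 76 and 78.8 CPM with CTRL sh, 128, 132 and 125 CPM with CPSF1 sh1 and 134, 135 and 129 CPM with CPSF1 sh2. It was higher in every knockdown library, and the log2 fold change was 0.75 (SE 0.04, adjusted p = 1.31e-09). NOL6, a component of the small subunit processome, went from 142, 144 and 156 CPM with CTRL sh to 235, 236 and 228 CPM with CPSF1 sh1 and 246, 244 and 240.1 CPM with CPSF1 sh2. The groups were apart, and NOL6 changed by 0.69 (SE 0.04, adjusted p = 2.60e-09). RRP9 rose by 0.74 and BOP1 by 0.60 on the log2 scale. Mitochondrial ribosome genes followed, and 42 of 73 tested members were higher and 9 were lower, with a median log2 fold change of 0.15. MRPL4, a large subunit protein, rose by 0.49 (adjusted p = 1.56e-06) and MRPS18A of the small subunit by 0.46 (adjusted p = 1.36e-06). Among 78 cytosolic ribosomal proteins, 3 were higher and 35 lower (median -0.08). RPL22, a large subunit protein that is not essential for translation, measured 363, 348 and 343 CPM with CTRL sh, 265, 262 and 256 CPM with CPSF1 sh1 and 272, 266 and 272 CPM with CPSF1 sh2. All knockdown libraries were lower, with a log2 fold change of -0.40 (SE 0.03, adjusted p = 9.10e-08). Over the whole list the median of CPSF1 sh1 replicate 1 was 0.03, against 0.02 for the highest control. Within each group this median was lower in libraries with more counts. With CPSF1 sh2 it was -0.07 at 11368258 counts and -0.18 at 13567312 counts. The part of depth in the list was not tested. RPSA of the small subunit went from 931, 904 and 891 CPM with CTRL sh to 804, 752 and 760.1 CPM with CPSF1 sh1 and 733, 709 and 723 CPM with CPSF1 sh2. This fall was -0.28 on the log2 scale. Many ribosomal protein genes have processed pseudogene copies that share reads, so their counts are less certain. Cytosolic aminoacyl-tRNA synthetases, which charge tRNAs, were mixed: 6 of 20 higher and 4 lower, median 0.05. VARS rose by 0.55 and DARS fell, with a log2 fold change of -0.48.

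Lysosome and autophagy genes were higher more often than lower, and 24 of 45 tested members were higher and 9 were lower, with a median log2 fold change of 0.15. ATP6V0D1, a subunit of the proton pump that acidifies lysosomes, measured 86.8, 84.2 and 87.4 CPM with CTRL sh, 161, 147 and 148 CPM with CPSF1 sh1 and 161, 152 and 146 CPM with CPSF1 sh2. The groups were far apart, with a log2 fold change of 0.82 (SE 0.04, adjusted p = 1.42e-09). CTSD, the aspartic protease cathepsin D, went from 142, 136 and 136 CPM with CTRL sh to 249, 228 and 216 CPM with CPSF1 sh1 and 219, 202 and 198 CPM with CPSF1 sh2. Its rise was 0.66 (adjusted p = 3.47e-07). MCOLN1, a calcium channel of the lysosome, rose by 0.61. Among symbols that share a stem, the ATG autophagy genes had 9 of 16 higher and 2 lower, and the AP adaptor genes of vesicle coats and other AP symbols had 19 of 31 higher and 4 lower. Genes of transport from ER to Golgi were near the background: 16 of 43 higher and 11 lower, median 0.06. SEC24C, a cargo adaptor of the vesicle coat, rose by 0.50, whereas its paralog SEC24D had a log2 fold change of -0.48, both at adjusted p below the threshold (2.92e-08 and 6.42e-05).

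Targets of p53 gave the highest median of the 39 lists. All 28 passed the filter, and 20 of 28 tested members were higher and 3 were lower, with a median log2 fold change of 0.42. The transcription factor p53 halts the cell cycle, repairs DNA and can trigger apoptosis. CDKN1A (chromosome 6, 36644305 to 36655116, plus strand, GRCh37), the inhibitor p21 of cyclin-dependent kinases, measured 203, 204 and 225 CPM with CTRL sh, 683, 620.1 and 599.8 CPM with CPSF1 sh1 and 606, 575 and 562 CPM with CPSF1 sh2. All knockdown libraries were far above all controls, and the log2 fold change was 1.53 (SE 0.06, adjusted p = 5.65e-11). MDM2, the ubiquitin ligase that targets p53, measured 151, 157 and 163 CPM with CTRL sh, 273, 285 and 282 CPM with CPSF1 sh1 and 251, 263 and 280.4 CPM with CPSF1 sh2. It was higher in all 6 knockdown libraries, with a log2 fold change of 0.80 (SE 0.04, adjusted p = 2.55e-09). BAX, which permeabilises mitochondria, went from 44.6, 42.9 and 43.3 CPM with CTRL sh to 74.4, 69.1 and 72.1 CPM with CPSF1 sh1 and 82, 81.7 and 80.5 CPM with CPSF1 sh2. BAX changed by 0.82 (SE 0.06, adjusted p = 4.95e-08). FDXR, a mitochondrial reductase, rose by 0.85, TP53I3, a quinone oxidoreductase, by 1.39 and RRM2B, a ribonucleotide reductase subunit, by 0.43 on the log2 scale. Not all members followed. BBC3, the apoptosis inducer PUMA, overlapped between groups at 0.10 (adjusted p = 0.425), and CCNG1 fell from 384, 372 and 367 CPM with CTRL sh to 281, 284 and 286 CPM with CPSF1 sh1 and 245, 242 and 239.7 CPM with CPSF1 sh2. GDF15, a secreted TGF-beta family protein that many stresses induce, also fell, from 676, 664 and 651 CPM to 423, 403 and 341 CPM with CPSF1 sh1 and 411, 402 and 372 CPM with CPSF1 sh2. That log2 fold change was -0.76 (SE 0.05, adjusted p = 2.09e-08).

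In the BCL2 family, which balances survival and death at mitochondria, 5 of 19 tested members were higher and 9 were lower, with a median log2 fold change of -0.17. The largest falls were in the mitophagy receptors BNIP3L and BNIP3, which are also known targets of hypoxia-inducible factors. BNIP3L measured 343, 341 and 303 CPM with CTRL sh, 141, 161 and 156 CPM with CPSF1 sh1 and 133, 151 and 141 CPM with CPSF1 sh2. All knockdown libraries were under all controls, with a log2 fold change of -1.16 (SE 0.06, adjusted p = 5.30e-10). BNIP3 fell by 0.99 and BMF, a BH3-only inducer of apoptosis, fell by 0.90 on the log2 scale. BCL2L1, a survival protein, rose from 126, 131 and 120.2 CPM with CTRL sh to 188, 194 and 175 CPM with CPSF1 sh1 and 165, 173 and 173 CPM with CPSF1 sh2. MCL1, another survival protein, had a log2 fold change of -0.32 (SE 0.04, adjusted p = 2.25e-06), so survival genes moved both ways.

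Genes of the cell cycle were taken as a replication list and a mitosis list. In the DNA replication list, 17 of 44 tested members were higher and 6 were lower, with a median log2 fold change of 0.09. ORC5, part of the complex that marks origins, measured 56.4, 49.99 and 52 CPM with CTRL sh, 85.1, 89.4 and 85 CPM with CPSF1 sh1 and 78.8, 79.7 and 82.3 CPM with CPSF1 sh2. It was higher in every knockdown library, with a log2 fold change of 0.66 (SE 0.05, adjusted p = 9.28e-08). FEN1, the flap nuclease of lagging strand synthesis, rose by 0.41, POLA1, the primase polymerase, by 0.40 and CDC6, the loader of the replicative helicase, by 0.39. Of MCM2 to MCM7, the helicase itself, 2 of 6 were higher (median 0.13). In the mitosis list, 7 of 40 tested members were higher and 14 were lower, with a median log2 fold change of -0.10, and the median was -0.22 with CPSF1 sh1 and -0.01 with CPSF1 sh2. NEK2, a kinase that separates centrosomes, measured 60.5, 58.7 and 57.9 CPM with CTRL sh, 37, 33.1 and 37.2 CPM with CPSF1 sh1 and 40.4, 37 and 41.7 CPM with CPSF1 sh2. The knockdown libraries were all lower, with a log2 fold change of -0.64 (SE 0.06, adjusted p = 5.84e-07). CENPE, a kinetochore motor, went from 108, 99.5 and 102 CPM with CTRL sh to 67.5, 72.1 and 74.4 CPM with CPSF1 sh1 and 78.4, 74.7 and 81.2 CPM with CPSF1 sh2. CENPE fell by 0.46 (adjusted p = 2.73e-06). CDC20, the activator of the anaphase-promoting complex, went against its list and rose by 0.45 (adjusted p = 1.51e-06). Genes of homologous recombination and DNA break repair gave 5 of 30 higher and 11 lower, median -0.09. RAD54L, the motor that remodels recombination filaments, measured 43.7, 46.1 and 47.5 CPM with CTRL sh, 31.4, 28.6 and 29 CPM with CPSF1 sh1 and 33.9, 32.7 and 32.8 CPM with CPSF1 sh2. Its groups did not overlap, with a log2 fold change of -0.54 (SE 0.06, adjusted p = 3.36e-06), whereas RAD51C, a filament mediator, rose by 0.42 and BLM, a helicase, by 0.40. Fewer dividing cells and less message per cell cannot be told apart in bulk RNA.

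Lipid synthesis divided into a sterol branch that was in part higher, mainly with CPSF1 sh1, and a fatty acid branch with more members lower than higher. For cholesterol synthesis, 10 of 24 tested members were higher and 6 were lower, with a median log2 fold change of 0.14. The median was 0.29 with CPSF1 sh1 and 0.03 with CPSF1 sh2. MVK, a kinase of the mevalonate path, measured 26.3, 26.8 and 22.9 CPM with CTRL sh, 47.8, 45.2 and 41.6 CPM with CPSF1 sh1 and 46.6, 43.5 and 43.1 CPM with CPSF1 sh2. It was higher in all 6 knockdown libraries, with a log2 fold change of 0.81 (SE 0.07, adjusted p = 1.10e-07). EBP, a sterol isomerase, rose by 0.56, while INSIG1, which restrains sterol synthesis, had a log2 fold change of -0.16 (adjusted p = 0.0266) with overlapping groups. For fatty acid and triglyceride synthesis, 3 of 23 tested members were higher and 11 were lower, with a median log2 fold change of -0.10. FADS2, the first desaturase of polyunsaturated fats, measured 717, 727 and 721 CPM with CTRL sh, 447, 468 and 433 CPM with CPSF1 sh1 and 393, 419.6 and 399 CPM with CPSF1 sh2. The groups were far apart, with a log2 fold change of -0.76 (SE 0.05, adjusted p = 6.27e-09). FADS1, the next desaturase, fell by 0.81, and SCD, which makes monounsaturated fats, fell by 0.58 from 1322, 1304 and 1373 CPM to 947, 983 and 991 CPM with CPSF1 sh1 and 775, 832 and 833 CPM with CPSF1 sh2. FASN, the fatty acid synthase, had a log2 fold change of -0.10 (SE 0.05, adjusted p = 0.0775) with overlapping groups. Of the chain elongases, ELOVL7 went from 36.5, 39.5 and 39.7 CPM with CTRL sh to 90.2, 104 and 97 CPM with CPSF1 sh1 and 87.9, 88.8 and 92.7 CPM with CPSF1 sh2. ELOVL7 rose by 1.27 (SE 0.06, adjusted p = 4.99e-10) and ELOVL1 by 0.65, whereas ELOVL6 fell by 0.63 and ELOVL5 was at 0.01 (adjusted p = 0.951). Of 7 desaturases and elongases tested, 2 were higher and 4 lower (median -0.58). Fatty acid oxidation gave 9 of 22 higher and 5 lower, median 0.06, with SLC25A20, the carnitine carrier, at 0.67 and PPARA, the regulator of the pathway, at -0.63, both past the threshold (adjusted p = 3.78e-07 and 8.20e-06).

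Mitochondrial metabolism was higher by small amounts. For the TCA cycle, 16 of 28 tested members were higher and 5 were lower, with a median log2 fold change of 0.12. MPC2, a subunit of the carrier that brings pyruvate into mitochondria, measured 232, 224 and 224 CPM with CTRL sh, 337, 315 and 319 CPM with CPSF1 sh1 and 341, 314 and 328 CPM with CPSF1 sh2. No library overlapped, and MPC2 rose by 0.52 (SE 0.04, adjusted p = 2.40e-08). SUCLA2, a succinyl-CoA synthetase subunit, fell, from 91.8, 93.5 and 92.8 CPM with CTRL sh to 64.3, 62.8 and 69.7 CPM with CPSF1 sh1 and 68.7, 67 and 68.8 CPM with CPSF1 sh2. Nuclear genes of the respiratory chain had 34 of 73 higher and 8 lower (median 0.09). Within each group the median of this list was lower in libraries with more counts, and the part of depth was not tested. Of the nuclear subunits of complex I, 17 of 37 were higher and 6 lower. UQCR10 of complex III rose by 0.37 and NDUFS5 of complex I fell by 0.50. Of the 13 mitochondrially encoded genes, 5 were higher (median 0.14). MT-ND6, the member on the light strand, measured 101, 128 and 120.2 CPM with CTRL sh, 175, 179 and 182 CPM with CPSF1 sh1 and 198, 218 and 239.7 CPM with CPSF1 sh2. It rose by 0.77 (SE 0.10, adjusted p = 7.49e-06). The 12 others were lower with CPSF1 sh2 than with CPSF1 sh1, but 1 was without CPSF1 sh2 replicate 2 and 7 were with the trend of each library with expression level removed. MT-CO1, the most abundant gene, had 37837 to 44923 counts while total counts ranged from 8515624 to 13567312, and the part of this in the mitochondrial values was not tested.

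The stress responses did not move as a block. Genes of the integrated stress response, which ATF4 drives when amino acids are short, were mostly lower, and 4 of 25 tested members were higher and 13 were lower, with a median log2 fold change of -0.19. ATF4 itself measured 467, 455 and 463 CPM with CTRL sh, 353, 339 and 345 CPM with CPSF1 sh1 and 387, 374 and 374 CPM with CPSF1 sh2. Every knockdown library was lower, with a log2 fold change of -0.35 (SE 0.04, adjusted p = 4.10e-06). SLC1A5, the glutamine transporter, measured 182, 175 and 180.4 CPM with CTRL sh, 94.9, 88.1 and 94.9 CPM with CPSF1 sh1 and 135, 120.5 and 128 CPM with CPSF1 sh2. It fell with both hairpins, with a log2 fold change of -0.70 (SE 0.11, adjusted p = 4.78e-05), and further with CPSF1 sh1. CHAC1, which degrades glutathione, fell by 0.81 and DDIT4, an inhibitor of mTORC1, fell by 0.79. ATF5, another factor of the response, rose from 41.2, 36.5 and 38.9 CPM with CTRL sh to 62.8, 60.4 and 60.3 CPM with CPSF1 sh1 and 63.7, 60.5 and 59.9 CPM with CPSF1 sh2, and DDIT3, which codes for CHOP, was at 0.10 (adjusted p = 0.265). The unfolded protein response and ER chaperones gave 11 of 33 higher and 6 lower, median 0.10. HYOU1, an ER chaperone, measured 391, 398 and 406 CPM with CTRL sh, 570.3, 588 and 561 CPM with CPSF1 sh1 and 495, 479.8 and 476 CPM with CPSF1 sh2. It was higher with both hairpins, with a log2 fold change of 0.41 (SE 0.06, adjusted p = 7.25e-05). ERO1LB and ERO1L, the oxidases that supply disulfide bonds, fell by 1.34 and 0.89. The NRF2 list of oxidative stress genes was split, with 12 of 24 higher and 6 lower, median 0.13. NQO1, a quinone reductase and standard NRF2 target, measured 144, 137 and 144 CPM with CTRL sh, 74.5, 70.4 and 68.4 CPM with CPSF1 sh1 and 77.5, 79.4 and 78.6 CPM with CPSF1 sh2. It fell in all 6 knockdown libraries, with a log2 fold change of -0.92 (SE 0.05, adjusted p = 1.19e-09), while GSR, the glutathione reductase, rose by 0.47, OSGIN1 by 0.87 and HMOX1, the heme oxygenase, by 0.48.

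HLA-B, HLA-C and HLA-E, heavy chains of class I molecules, fell. Of 55 members of the interferon and antigen presentation list, 41 passed the filter, and 11 of 41 tested members were higher and 16 were lower, with a median log2 fold change of -0.05. Class I molecules show peptides to T cells and consist of an HLA heavy chain with B2M. HLA-B (chromosome 6, 31321649 to 31324965, minus strand, GRCh37) measured 92.5, 88.3 and 94.7 CPM with CTRL sh, 41, 40.3 and 35.9 CPM with CPSF1 sh1 and 29.7, 34.1 and 29.9 CPM with CPSF1 sh2. The knockdown libraries were all far below the lowest control, and the log2 fold change was -1.39 (SE 0.08, adjusted p = 4.09e-09). HLA-C fell by 0.60 and HLA-E fell by 0.62, while B2M rose by 0.37 (adjusted p = 5.57e-05). Reads of class I genes can be shared between these similar genes and depend on how the cell's alleles match the reference, so the split between them is uncertain. NLRC5, the transactivator of class I genes, went from 10.6, 11.3 and 9.47 CPM with CTRL sh to 5.99, 6.57 and 5.65 CPM with CPSF1 sh1 and 5.58, 5.07 and 4.57 CPM with CPSF1 sh2. This is a change of -0.92 (SE 0.12, adjusted p = 1.05e-05). TAPBP, which loads peptides, fell by 0.36, and UBE2L6, a conjugating enzyme for ISG15, fell by 1.67. DHX58, a sensor of viral RNA, rose instead, from 4.41, 5.02 and 4.74 CPM to 18, 14.4 and 16.1 CPM with CPSF1 sh1 and 22.9, 16.4 and 16.6 CPM with CPSF1 sh2.

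Inflammatory and immediate early genes were lower more often than higher. Of 30 NF-kB genes 18 were tested, and 3 of 18 tested members were higher and 8 were lower, with a median log2 fold change of -0.14. SDC4, a heparan sulfate proteoglycan, measured 78.3, 72.9 and 79.9 CPM with CTRL sh, 28.8, 35.5 and 33.5 CPM with CPSF1 sh1 and 32.9, 31.3 and 31.8 CPM with CPSF1 sh2. It was lower in every knockdown library, with a log2 fold change of -1.25 (SE 0.06, adjusted p = 3.89e-10). REL, an NF-kB subunit, fell by 0.61 and TNIP1, which restrains the pathway, fell by 0.50. In the AP-1 list, 20 of 30 members passed the filter, and 3 of 20 tested members were higher and 11 were lower, with a median log2 fold change of -0.24. JUND, a subunit of AP-1, measured 170.3, 170.2 and 171 CPM with CTRL sh, 89.9, 79.2 and 77.1 CPM with CPSF1 sh1 and 84.8, 82.6 and 68.2 CPM with CPSF1 sh2. All knockdown libraries were lower than all controls, with a log2 fold change of -1.09 (SE 0.06, adjusted p = 1.78e-09). KLF4, a zinc finger factor of epithelia, fell by 0.86, while FOSL2, another AP-1 subunit, rose by 0.66 and KLF6 by 0.79. FOS and EGR1 did not pass the filter. The small MAPK feedback list, with 11 of 20 members tested, had 2 higher and 2 lower. DUSP4, a phosphatase of ERK, fell by 0.75, and PHLDA1 rose from 2.53, 3.27 and 4.12 CPM to 6.59, 6.93 and 7.3 CPM with CPSF1 sh1 and 11.6, 11.5 and 11.3 CPM with CPSF1 sh2.

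Growth factor pathways showed large changes in few members. Insulin and IGF signalling gave 8 of 30 higher and 11 lower, median -0.0038. IGF1R (chromosome 15, 99192200 to 99507759, plus strand, GRCh37), the receptor for IGF1, measured 39.9, 43.2 and 42.4 CPM with CTRL sh, 126, 128 and 133 CPM with CPSF1 sh1 and 124, 141 and 141 CPM with CPSF1 sh2. The groups were far apart, with a log2 fold change of 1.66 (SE 0.06, adjusted p = 1.92e-11). IRS1, the adaptor that carries its signal, rose by 0.90 (adjusted p = 2.22e-07). IGFBP3, a secreted protein that binds IGFs, measured 6.85, 6.45 and 6.31 CPM with CTRL sh, 49.3, 52.3 and 57.9 CPM with CPSF1 sh1 and 37.7, 40.01 and 36.8 CPM with CPSF1 sh2. Its log2 fold change was 2.8 (SE 0.17, adjusted p = 6.18e-09). FOXO4, a factor that the pathway restrains, fell by 0.48. TGF-beta and BMP signalling gave 10 of 29 higher and 12 lower, median 0.01. ID2, an inhibitor of bHLH factors and a BMP target, measured 5.63, 6.11 and 6.23 CPM with CTRL sh, 29.6, 27.4 and 37.2 CPM with CPSF1 sh1 and 25.4, 26.5 and 27 CPM with CPSF1 sh2. Every knockdown library was far above the highest control, and the log2 fold change was 2.26 (SE 0.14, adjusted p = 4.33e-09). ID3, a related target, went from 11.9, 11.3 and 13.7 CPM with CTRL sh to 42.9, 45.7 and 56.6 CPM with CPSF1 sh1 and 32.9, 29.8 and 26 CPM with CPSF1 sh2. The change of ID3 was 1.65 (SE 0.22, adjusted p = 1.61e-05), and SMAD6, which is induced by BMPs and blocks them, rose by 0.97. Wnt signalling gave 7 of 30 higher and 12 lower, median -0.04. WLS, the carrier that secretes Wnt proteins, measured 36, 36.1 and 35.6 CPM with CTRL sh, 10.1, 10.7 and 10.4 CPM with CPSF1 sh1 and 8.06, 11 and 10.6 CPM with CPSF1 sh2. It fell in every knockdown library, with a log2 fold change of -1.82 (SE 0.08, adjusted p = 2.74e-10). WNT5A, a ligand, fell by 1.44, and the feedback inhibitors NKD1 and NKD2 fell by 0.81 and 0.87.

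Genes of cell identity moved in both directions. In the luminal and junction list, 12 of 38 tested members were higher and 17 were lower, with a median log2 fold change of -0.05. PRSS8, a membrane protease of epithelia, measured 125, 128 and 121 CPM with CTRL sh, 69.1, 66.7 and 66.8 CPM with CPSF1 sh1 and 57.1, 60.3 and 52.4 CPM with CPSF1 sh2. It was lower in all knockdown libraries, with a log2 fold change of -1.01 (SE 0.07, adjusted p = 1.48e-08). EHF, an epithelial ETS factor, fell from 511, 527 and 507 CPM to 341, 362 and 333 CPM with CPSF1 sh1 and 358, 378 and 393 CPM with CPSF1 sh2. FOXA1, the pioneer factor of the luminal lineage, fell by 0.48, HOXB13 fell by 0.29 and OCLN, a tight junction protein, fell by 0.64. KRT8, a luminal keratin, rose by 0.38 and KRT19 by 1.01. Matrix and mesenchymal genes passed the filter in 34 of 57 cases, with 13 of 34 higher and 15 lower, median -0.14. With no filter the median of that list was 0.21. THBS1, a matrix glycoprotein, measured 8.92, 9.8 and 10.1 CPM with CTRL sh, 34, 32.7 and 36 CPM with CPSF1 sh1 and 42.7, 44.2 and 42.9 CPM with CPSF1 sh2. The log2 fold change was 2.02 (SE 0.12, adjusted p = 3.87e-09). LAMB3, a laminin chain, rose by 2.05 and COL12A1 by 1.65. ACTA2, the actin of smooth muscle, went from 18.1, 19.3 and 20.9 CPM to 62.1, 58.7 and 57.5 CPM with CPSF1 sh1 and 72.7, 73.6 and 68.2 CPM with CPSF1 sh2. COL1A1, a fibrillar collagen chain, fell by 0.71 (adjusted p = 5.28e-06), and COL3A1 was at -0.11 (adjusted p = 0.491).

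The list of neuronal and neuroendocrine genes held MAP2 and RTN1, among the 20 largest rises described below, and ENO2, among the 20 largest falls. Of 49 members 17 passed the filter, and 7 of 17 tested members were higher and 9 were lower, with a median log2 fold change of -0.26, but the median was 0.01 with edgeR's filterByExpr and 0.44 with no filter. MAP2, a microtubule protein of dendrites, and RTN1, a reticulon of neurons and neuroendocrine cells, are described with the largest changes below. NLGN1, an adhesion protein of synapses, measured 13.4, 13.8 and 12.2 CPM with CTRL sh, 3.59, 3.15 and 7.5 CPM with CPSF1 sh1 and 3.1, 4.04 and 4.98 CPM with CPSF1 sh2. It fell, with a log2 fold change of -1.58 (SE 0.20, adjusted p = 6.49e-06). The neuroendocrine markers CHGA, INSM1 and NEUROD1 had at most 3 counts in any library. SYP had 0.97 to 5.80 CPM, with a median of 1.41 CPM over the 9 libraries.

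Of 5 tested UGT2B enzymes, 4 fell and 1 rose. In the list, 19 of 33 members passed the filter, with 6 of 19 higher and 7 lower, median -0.06. Enzymes of the UGT2B family attach glucuronic acid to androgens so that they leave the cell. UGT2B17 measured 338, 327 and 317 CPM with CTRL sh, 75, 92 and 75 CPM with CPSF1 sh1 and 47.7, 53.7 and 52.1 CPM with CPSF1 sh2. The log2 fold change was -2.32 (SE 0.14, adjusted p = 4.01e-09). UGT2B15 measured 338, 317 and 308 CPM with CTRL sh, 90.6, 97.1 and 94.3 CPM with CPSF1 sh1 and 68.4, 69.6 and 72.5 CPM with CPSF1 sh2. Its log2 fold change was -1.98 (SE 0.09, adjusted p = 4.08e-10). UGT2B11 fell by 0.85 and UGT2B10 fell by 0.58, and UGT2B28 rose by 0.48 (adjusted p = 0.0143), with CPSF1 sh2 libraries that overlapped the controls. These genes are close in sequence, so reads may be split among them. SULT2B1, a sterol sulfotransferase, went from 14.5, 14.4 and 14.6 CPM to 4.55, 3.6 and 4.28 CPM with CPSF1 sh1 and 4.69, 5.36 and 4.98 CPM with CPSF1 sh2. STS, the sulfatase with the reverse activity, rose by 1.3 (SE 0.09, adjusted p = 2.68e-08).

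One-carbon and polyamine genes were near the background. Serine and folate enzymes gave 9 of 23 higher and 6 lower, median 0.05, and polyamine and methionine genes 7 of 25 higher and 9 lower, median -0.02. SRM, the spermidine synthase, measured 162, 166 and 171 CPM with CTRL sh, 259.8, 237 and 223 CPM with CPSF1 sh1 and 258, 243 and 241 CPM with CPSF1 sh2. It rose by 0.55 (SE 0.05, adjusted p = 1.52e-07), while MTR, the methionine synthase, fell by 0.59 and CTH, which makes cysteine, fell by 0.57. AMT of the glycine cleavage system fell by 1.12 and FTCD, a folate enzyme, rose by 1.05, both from levels under 10 CPM.

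Partners of CPSF1 in 3′ end formation were higher more often than lower, and 9 of 20 tested members were higher and 2 were lower, with a median log2 fold change of 0.11. CSTF3, a subunit of the cleavage stimulation factor that is known to limit its own message by an early poly(A) site, measured 77, 74.1 and 77.7 CPM with CTRL sh, 149, 154 and 148 CPM with CPSF1 sh1 and 175, 163 and 175 CPM with CPSF1 sh2. The groups were far apart, with a log2 fold change of 1.08 (SE 0.06, adjusted p = 2.51e-09). PCF11, a termination factor, rose by 0.51 and PAPOLA, the poly(A) polymerase, by 0.40. NUDT21, the subunit that binds upstream of poly(A) sites, went from 267, 242 and 254 CPM with CTRL sh to 166, 169.6 and 195 CPM with CPSF1 sh1 and 184, 179 and 189.8 CPM with CPSF1 sh2. That was a fall of 0.49 (adjusted p = 8.08e-07). SR and hnRNP splicing factors gave 14 of 38 higher and 8 lower, median 0.07, with the SR protein kinases CLK2 and CLK3 lower, by 0.53 and 0.48. RNA decay genes gave 17 of 51 higher and 12 lower, median 0.04. EXOSC7, an exosome subunit, fell by 0.50 and EXOSC4, its neighbour in the ring, rose by 0.45.

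Chromatin regulators of the Polycomb and MLL groups were lower more often than higher, and 7 of 41 tested members were higher and 19 were lower, with a median log2 fold change of -0.09. Polycomb complexes keep developmental genes silent. PHC1, a subunit of the first complex, measured 40.8, 44.1 and 42.5 CPM with CTRL sh, 17.9, 19.7 and 20.4 CPM with CPSF1 sh1 and 19, 22.1 and 17.5 CPM with CPSF1 sh2. It fell in all 6 libraries, with a log2 fold change of -1.12 (SE 0.07, adjusted p = 7.75e-09). PCGF2, another subunit, fell by 0.76, CBX2, a reader of the repressive mark, fell by 0.60 and PHF19, an accessory factor of the second complex, fell by 0.90. The enzyme of the second complex, EZH2, was at 0.06 (adjusted p = 0.5), with overlapping groups. Histone genes moved as a group. Among 73 symbol stems with at least 15 tested genes, HIST had the highest median, 0.87, with 14 of 15 genes higher. HIST1H1C, a linker histone, measured 35.2, 37.9 and 36 CPM with CTRL sh, 109, 114 and 104 CPM with CPSF1 sh1 and 108, 106 and 100.04 CPM with CPSF1 sh2. The change was 1.55 (SE 0.05, adjusted p = 1.91e-11). HIST2H2BE, a core histone, measured 40.7, 38.9 and 40.2 CPM with CTRL sh, 153, 158 and 146 CPM with CPSF1 sh1 and 112, 117 and 111 CPM with CPSF1 sh2. All knockdown libraries were higher, with a log2 fold change of 1.73 (SE 0.12, adjusted p = 2.50e-08). Both were chosen after their values were seen. Histone messages of the replication-dependent kind normally end without a poly(A) tail, and the libraries were made with an mRNA kit, so the values are those of the message such a kit captures. At the other end, the ARHGEF exchange factors had 2 of 22 higher and 11 lower (median -0.23), the RAD stem 2 of 17 higher and 9 lower (median -0.20), the GPR stem 6 of 21 higher and 8 lower (median -0.19) and the KDM demethylases 4 of 18 higher and 10 lower (median -0.18).

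Changes were ranked over genes above 2 CPM in all 9 libraries whose groups did not overlap. Genes that rose from lower levels are thus left out, and with no filter 1278 genes were over 2-fold higher and 592 lower. Of the ranked genes, the largest rise was MAP2 (chromosome 2, 210288782 to 210598842, plus strand, GRCh37). It measured 4.51, 5.02 and 4.39 CPM with CTRL sh, 34, 34.2 and 49.6 CPM with CPSF1 sh1 and 39, 42.9 and 40.6 CPM with CPSF1 sh2. All 6 knockdown libraries were far above every control, with a log2 fold change of 3.11 (SE 0.15, adjusted p = 4.11e-10). RTN1 measured 10.7, 8.21 and 8.42 CPM with CTRL sh, 73.2, 71.1 and 67.4 CPM with CPSF1 sh1 and 60.7, 57 and 60.8 CPM with CPSF1 sh2. Its log2 fold change was 2.83 (SE 0.11, adjusted p = 6.14e-11). MAF, a bZIP transcription factor, rose from 21.1, 18.8 and 20.5 CPM with CTRL sh to 133, 131 and 129 CPM with CPSF1 sh1 and 116, 109 and 113 CPM with CPSF1 sh2. The groups did not come near each other, and the change was 2.6 (SE 0.08, adjusted p = 1.24e-11). CLU, an extracellular chaperone that is known to rise in stressed prostate cells, measured 12.5, 10.6 and 13.8 CPM with CTRL sh, 72.5, 62.8 and 111 CPM with CPSF1 sh1 and 64.4, 62.3 and 57.4 CPM with CPSF1 sh2. CPSF1 sh1 replicate 3 was the highest library, and all 6 were above the controls, with a log2 fold change of 2.54 (SE 0.21, adjusted p = 1.30e-07). COL4A6, a basement membrane collagen, rose by 2.71, RGS5, a regulator of G protein signalling, by 2.44 and CDC42EP3, an effector of CDC42, by 2.2. The other 11 of the top 20 rises were FAM110B, WDR96, HSPB8, KCNAB3, ZNF812, LRRC37A3, METTL12, FOXD4, CELF6, TUBA3D and TSGA10, besides IGFBP3 and ID2 above. They ranged from log2 2.19 for TUBA3D and TSGA10 to 2.73 for FAM110B. LRRC37A3, TUBA3D and FOXD4 have near copies in the genome, so their counts are less certain.

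The largest fall among the ranked genes was NDUFA4L2 (chromosome 12, 57628686 to 57634498, minus strand, GRCh37), a mitochondrial protein that hypoxia induces. It measured 195, 200.2 and 178 CPM with CTRL sh, 5.87, 4.14 and 6.91 CPM with CPSF1 sh1 and 9.03, 23.1 and 13.2 CPM with CPSF1 sh2. The libraries with CPSF1 sh2 were higher than those with CPSF1 sh1, and all 6 were far below the controls, with a log2 fold change of -4.12 (SE 0.24, adjusted p = 3.41e-09). FAM65B, an inhibitor of RhoA, measured 53.5, 52.3 and 48.1 CPM with CTRL sh, 4.91, 4.41 and 6.43 CPM with CPSF1 sh1 and 4.16, 6.53 and 6.56 CPM with CPSF1 sh2. It fell, with a log2 fold change of -3.21 (SE 0.11, adjusted p = 1.91e-11). BCHE, butyrylcholinesterase, went from 262, 264 and 258 CPM with CTRL sh to 25.6, 26.4 and 28.6 CPM with CPSF1 sh1 and 32.2, 30.2 and 31.8 CPM with CPSF1 sh2. This was the most precise of the large falls, at -3.16 (SE 0.05, adjusted p = 1.02e-14). TLL1, a metalloprotease that matures collagens, fell by 2.99, PLOD2, which hydroxylates collagen lysines, fell by 2.97 and GABBR1, a GABA receptor subunit, fell by 2.7. ENO2, the neuronal enolase, fell by 2.5, SLC22A3, an organic cation transporter, fell by 2.33 and TM4SF1, a membrane protein of migrating cells, fell by 2.07. The remaining falls shown, besides the UGT2B genes, were PPFIA4, PLEKHA2, ZNF629, SLITRK3, PLP2, SEMA4G, ADCY7 and ARHGEF25, between log2 -3.08 for PPFIA4 and -1.91 for ARHGEF25.

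**Figure D2:**
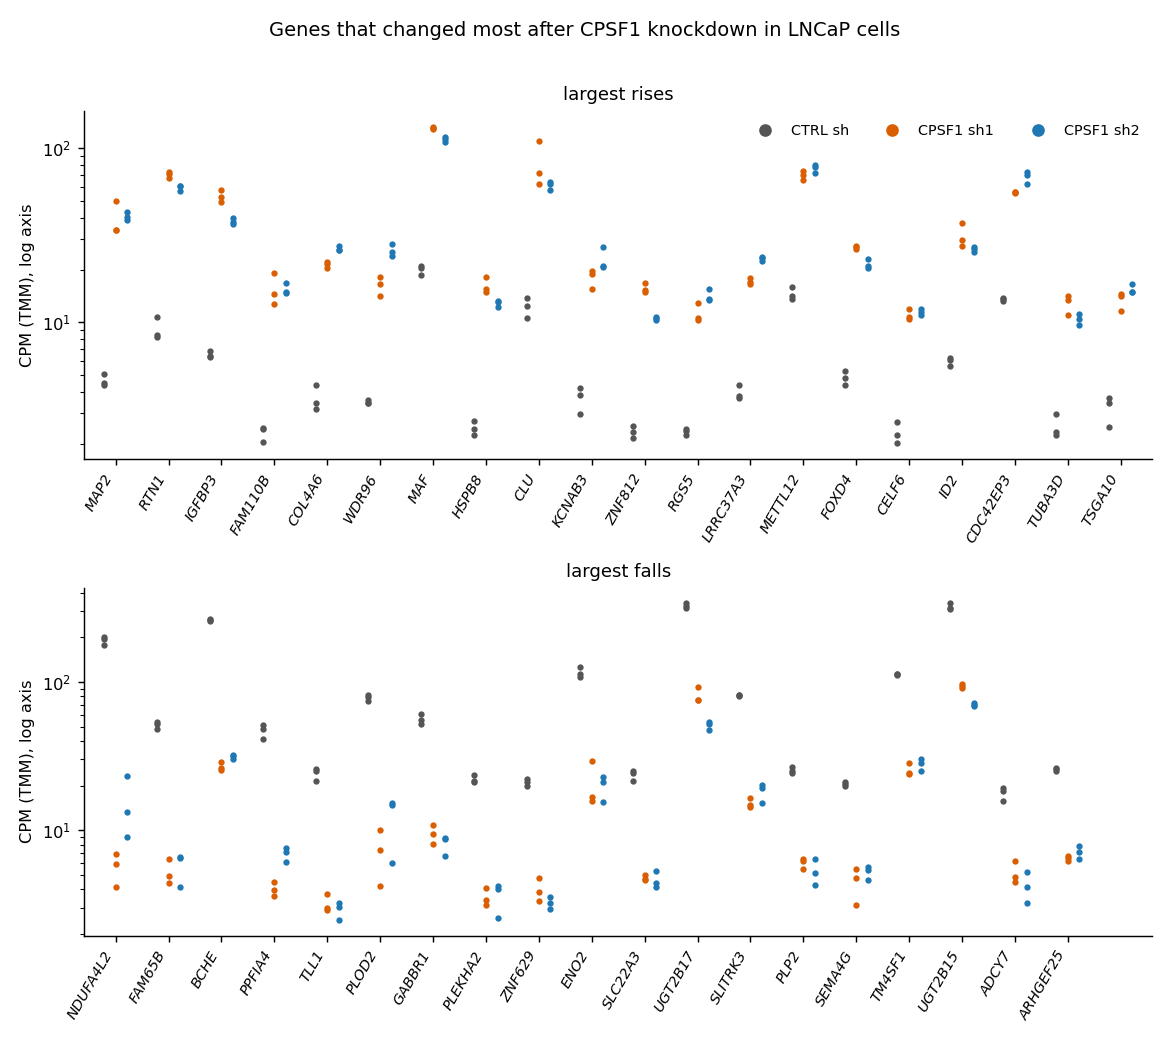
CPM scaled by TMM on a log axis for 20 rises (top) and 19 falls (bottom) among the largest whose groups do not overlap, with 3 points per group. By the rule that chose these genes, all points of CPSF1 sh1 and CPSF1 sh2 lie on the same side of the CTRL sh points. Of the 19 genes that fell, 10 lie under 10 CPM in every knockdown library.

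Called genes differed in their structure and level. Genes called higher had a median summed exon length of 4064 bases and a median level of 68.4 CPM, those called lower 4597 bases and 42.4 CPM, and those not called 4187 bases and 41.7 CPM. The median size of a called change was small, 0.31 for genes called higher and 0.37 for genes called lower on the log2 scale. Of the 6892 called genes, 6032 had no overlap between knockdown and control libraries. Calls and overlap come from the same libraries, so this separation largely follows from the calls. The share without overlap among all tested genes was not counted.

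The hairpins were then set against each other, since a programme seen with CPSF1 sh1 alone or CPSF1 sh2 alone is not shared by both. They differed for 1639 genes (14.8%), of which 725 were higher with CPSF1 sh2 (6.53%) and 914 lower (8.24%), and for 15 the difference passed 2-fold. Both hairpins share the CTRL sh libraries, so their effects are given side by side. Promoters of 4 genes are printed because each differed between hairpins and holds an element more frequent in its list than in all promoters searched. The printed promoters are the 180 bases before the RefSeq start in GRCh38.p14, 5′ to 3′, with elements in capitals. IFIT1 (chr10:89392443-89392622, plus strand) and HLA-B (chr6:31357180-31357359, minus strand) are interferon-responsive, HSPA5 (chr9:125241344-125241523, minus strand) codes for the ER chaperone BiP, and CCNB2 (chr15:59104966-59105145, plus strand) for cyclin B2 of mitosis.
IFIT1: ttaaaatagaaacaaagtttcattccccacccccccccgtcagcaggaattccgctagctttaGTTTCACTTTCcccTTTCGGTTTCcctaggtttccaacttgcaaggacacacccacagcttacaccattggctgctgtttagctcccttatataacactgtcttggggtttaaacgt
HLA-B: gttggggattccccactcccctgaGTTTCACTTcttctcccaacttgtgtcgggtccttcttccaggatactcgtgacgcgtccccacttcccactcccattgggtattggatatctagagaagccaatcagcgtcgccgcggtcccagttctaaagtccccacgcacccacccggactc
HSPA5: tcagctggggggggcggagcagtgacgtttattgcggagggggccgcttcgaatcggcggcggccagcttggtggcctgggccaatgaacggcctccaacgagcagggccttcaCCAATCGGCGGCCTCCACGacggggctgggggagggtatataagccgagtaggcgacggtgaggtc
CCNB2: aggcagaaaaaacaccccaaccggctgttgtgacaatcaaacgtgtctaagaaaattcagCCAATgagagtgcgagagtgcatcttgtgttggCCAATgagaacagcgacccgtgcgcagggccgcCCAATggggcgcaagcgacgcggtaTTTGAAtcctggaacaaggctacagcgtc
Elements were searched on both strands in the 250 bases before the start of 8551 of the 11096 tested genes. The capitals mark, in IFIT1, 2 matches to the interferon element, GAAA repeated after 2 bases of any kind, the first of which overlaps a match to AAGTGAAAC, and in HLA-B 1 match to AAGTGAAAC. In HSPA5 they mark the ER stress element, CCAAT and CCACG with 9 bases of any kind between, and in CCNB2 the CCAAT box and the cell cycle element TTTGAA. The interferon element stood in 2.18% of all these promoters and in 58.1% of the interferon list, AAGTGAAAC in 0.187% and 9.68%. The ER stress element, which contains a CCAAT box, stood in 11 promoters (0.129%), 6 of them in the 28 of the ER list and 7 among the 712 genes higher with CPSF1 sh1. TTTGAA stood in 7.82% of promoters, 52.9% of the mitosis list, 12.9% of genes higher with CPSF1 sh2 and 5.76% of genes higher with CPSF1 sh1. CCAAT stood in 35.8% of promoters, 79.4% of the mitosis list and 82.1% of the ER list. A match is a run of letters and does not show binding.

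Several interferon-induced genes were higher with CPSF1 sh1 than with CPSF1 sh2. IFIT1, an antiviral RNA-binding protein, measured 2.91, 2.6 and 2.1 CPM with CTRL sh, 13.7, 17.6 and 17.7 CPM with CPSF1 sh1 and 2.39, 2.28 and 2.32 CPM with CPSF1 sh2. The CPSF1 sh1 libraries were all above every other library, and the CPSF1 sh2 libraries overlapped the controls, with a difference, sh2 minus sh1, of -2.82 (SE 0.15, adjusted p = 2.84e-10). IFIT2, a relative, went from 4.6, 2.76 and 3.51 CPM with CTRL sh to 17.4, 24.5 and 24 CPM with CPSF1 sh1 and 2.57, 2.57 and 2.32 CPM with CPSF1 sh2. DDX60, a helicase of the antiviral response, measured 13, 14.5 and 14.7 CPM with CTRL sh, 18.1, 18.3 and 18.1 CPM with CPSF1 sh1 and 7.53, 5.87 and 6.48 CPM with CPSF1 sh2. It was higher than control with CPSF1 sh1 and lower with CPSF1 sh2, a difference of -1.46 (SE 0.11, adjusted p = 3.72e-08). IRF1, a regulator of class I genes, measured 4.51, 5.95 and 6.23 CPM with CTRL sh, 4.91, 5.31 and 6.43 CPM with CPSF1 sh1 and 3.01, 2.79 and 2.16 CPM with CPSF1 sh2. CPSF1 sh1 overlapped the controls and CPSF1 sh2 was below both, by -1.07 (SE 0.19, adjusted p = 6.31e-04). In all, 18 of 41 list members were lower with CPSF1 sh2 than with CPSF1 sh1 and 1 was higher, and the list medians were 0.02 and -0.22. HLA-B was below every control with both hairpins, with a difference of -0.32 (SE 0.07, adjusted p = 0.0045). IFIT1, IFIT2, DDX60 and IRF1 were chosen after their values were seen.

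Further lists kept apart by hairpin. In mitosis, 28 of 40 genes were higher with CPSF1 sh2 than with CPSF1 sh1, and the medians against CTRL sh were -0.22 with CPSF1 sh1 and -0.01 with CPSF1 sh2. CCNB2 measured 79.9, 81.1 and 79.1 CPM with CTRL sh, 48.7, 53.2 and 54.5 CPM with CPSF1 sh1 and 61.1, 62 and 64.8 CPM with CPSF1 sh2. Both hairpins were below the controls and the difference between them was 0.26 (SE 0.05, adjusted p = 0.00191). DNA replication had 16 of 44 higher with CPSF1 sh2, but 8 without CPSF1 sh1 replicate 2, 10 without CPSF1 sh1 replicate 1 and 10 by DESeq2. Cholesterol synthesis had 18 of 24 lower with CPSF1 sh2, with medians of 0.29 with CPSF1 sh1 and 0.03 with CPSF1 sh2. The unfolded protein response list had 20 of 33 lower with CPSF1 sh2, with medians of 0.20 and -0.03. HSPA5 measured 843, 807 and 816 CPM with CTRL sh, 1179.9, 1148 and 1095 CPM with CPSF1 sh1 and 771, 703 and 703 CPM with CPSF1 sh2. It was above control with CPSF1 sh1 and below it with CPSF1 sh2, a difference of -0.65 (SE 0.04, adjusted p = 1.04e-09). The integrated stress response had 17 of 25 higher with CPSF1 sh2 and 2 lower, with medians of -0.31 and -0.09. ASNS, asparagine synthetase, measured 258, 240.2 and 257 CPM with CTRL sh, 183, 173 and 177 CPM with CPSF1 sh1 and 249.8, 233 and 233 CPM with CPSF1 sh2. It was below control with CPSF1 sh1 and overlapped it with CPSF1 sh2, a difference of 0.43 (SE 0.04, adjusted p = 5.85e-07). The cause of these differences was not tested.

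Finally the LNCaP effect was set beside that in the hormone-insensitive lines. The knockdown effect differed between LNCaP and LNCaP95 for 6164 of 10317 genes tested in all 27 libraries (59.7%) and between LNCaP and 22Rv1 for 5188 (50.3%). Effects were above LNCaP95 for 28.5% of genes and below it for 31.2%, and above 22Rv1 for 25% and below it for 25.3%. Cholesterol synthesis was in part higher in LNCaP, mainly with CPSF1 sh1. It had 17 of 24 members lower in LNCaP95, where 33.7% of genes were lower. It had 23 of 24 lower in 22Rv1, where 14.3% of genes were. Its effect in LNCaP was above that in LNCaP95 for 19 members and above that in 22Rv1 for 20. MVK was at 0.81 in LNCaP, 0.06 in LNCaP95 and -0.30 in 22Rv1, and the difference from 22Rv1 was 1.11 (SE 0.07, adjusted p = 2.03e-13).

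Targets of p53 were above LNCaP95 for 22 of 28 members and below it for 1, and above 22Rv1 for 11 and below for 7. CDKN1A was at 1.53 in LNCaP, 0.23 in LNCaP95 and 1.26 in 22Rv1. Its difference from LNCaP95 was 1.28 (SE 0.07, adjusted p = 7.75e-16). Genes of the lysosome were above LNCaP95 for 30 of 45 and below for 3, nuclear respiratory genes for 44 of 73 and below for 1, and ER to Golgi genes for 28 of 43 and below for 1. ATP6V0D1 was at 0.82 in LNCaP and -0.02 in LNCaP95, a difference of 0.84 (SE 0.06, adjusted p = 8.07e-13). Replication genes were below LNCaP95 for 32 of 44 members and above 22Rv1 for 25, and mitosis genes were above LNCaP95 for 24 of 40. Ribosome biogenesis was below LNCaP95 for 25 of 49 and above 22Rv1 for 30, and chaperones were above 22Rv1 for 18 of 28. HLA-B fell more in LNCaP, at -1.39, than in LNCaP95, at -0.75, with a difference of -0.63 (SE 0.08, adjusted p = 4.23e-08). UGT2B15 fell in LNCaP, at -1.98, and was at 0.04 in LNCaP95 and -0.07 in 22Rv1. HIST1H1C was at 1.55 in LNCaP and -0.23 in LNCaP95, a difference of 1.76 (SE 0.08, adjusted p = 3.74e-18). LNCaP and 22Rv1 cells shared their medium and puromycin dose. LNCaP95 cells were kept without phenol red, and the labels name no puromycin dose for that line. Neither medium nor selection can be told apart from the line LNCaP95 itself. In 22Rv1 fewer genes were called, with 12.7% higher and 14.3% lower. The paper cautions that its hairpins may lower CPSF1 to differing degrees across lines. The fall of CPSF1 in the other lines is not given here, and its part in these differences was not tested.

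**Figure D3:**
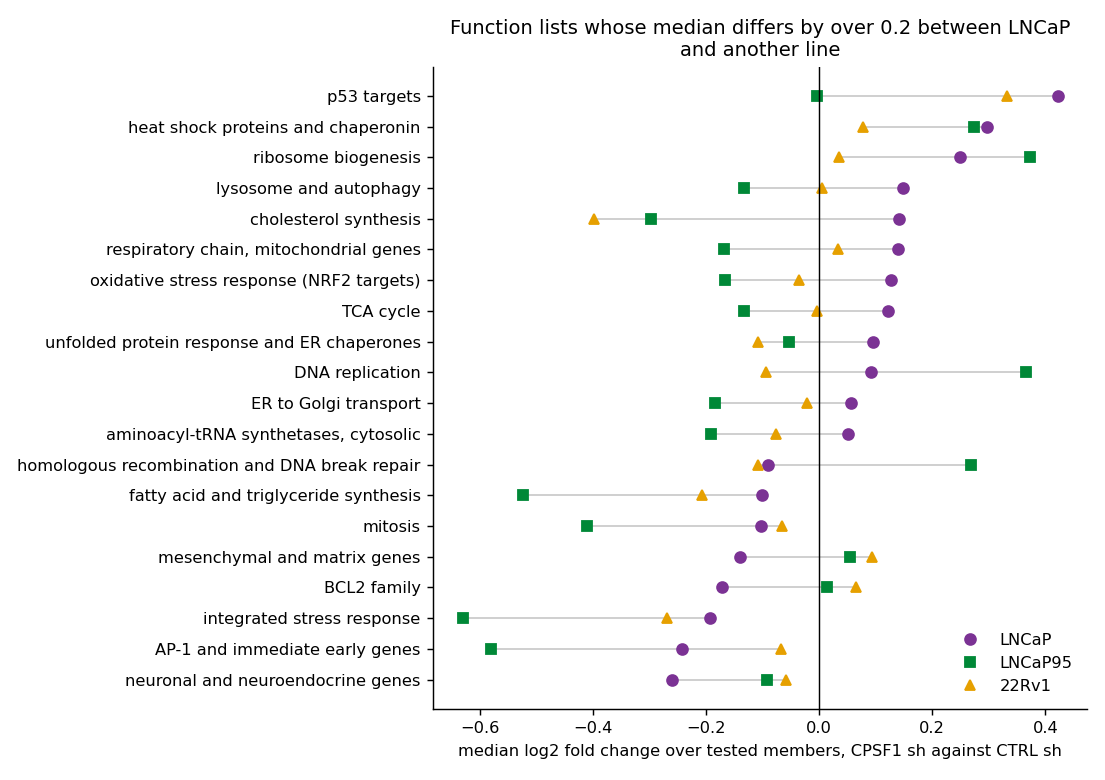
Median log2 fold change, CPSF1 sh against CTRL sh, over the tested members of the 20 function lists whose median in LNCaP is over 0.2 away from that in LNCaP95 or 22Rv1, each line fitted on its own. Cholesterol synthesis is at 0.14 in LNCaP, -0.30 in LNCaP95 and -0.40 in 22Rv1. Its LNCaP value pools hairpins with medians of 0.29 (CPSF1 sh1) and 0.03 (CPSF1 sh2). The p53 list is at 0.42 in LNCaP, -0.004 in LNCaP95 and 0.33 in 22Rv1.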

How the data were processed

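The counts were deposited by the authors as whole numbers per gene, summed over exons and not normalized. Per the labels and the submitters' processing notes, stranded mRNA libraries were aligned with HISAT2 (2.1.0) to GRCh37 and counted with Subread (2.0.3); how duplicate reads were treated is not given in the sources used here. Here genes above 2 CPM in all 9 LNCaP libraries were kept and tested with edgeR's earlier quasi-likelihood F-test, a filter and test taken from the study's methods, with TMM scaling as chosen here (edgeR 4.0.16, R 4.3.3), 6 CPSF1 sh against 3 CTRL sh, with Benjamini-Hochberg adjustment at 0.05. The hairpins were compared in a fit with 3 groups, and the lines by interaction terms in a fit of all 27 libraries. Alternatives were DESeq2 (1.42.0), other scalings and filters, a trend with exon length, single hairpins and leaving out each library; a trend with level per kb of exon was added after seeing the data. On simulated data of 11062 genes, 94 of 97 genes changed by log2 0.5 and 97 of 97 changed by log2 1 were recovered, with 9 false calls. That simulation changed few genes, gave all genes the same spread and had no difference between hairpins. In the data 62.1% of genes were called and hairpins differed, so it does not check the calls under those conditions.

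Members and lists were chosen with earlier results of these data known, and the lists overlap in 21 genes. Genes named by rule are CPSF1, up to 4 members of each list, and the 20 largest rises and falls. For members, rises and falls the rule takes the largest changes among genes called and not overlapping between knockdown and control. Other members are named outside this rule with their values, among them CCT5, MDM2, ATF4, HSPA5 and ASNS. Depth was 8515624 to 13567312 counts. Libraries of a group differed beyond sampling noise, so none was counted as a duplicate. The promoter sequences came from RefSeq, of another build than the counts, and were matched by symbol. Some genes that this rule names are not reported here.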

Additional observations from a re-analysis of the deposited data

Results flagged for a closer look

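Of 181 genes reported under the rule for named genes, 155 were tested for a difference in knockdown effect against each of the other lines, and a closer look is due where a gene was called in opposite directions in LNCaP and in another line and the edgeR test of the difference passed. Values are the log2 effect in LNCaP minus that in the other line. Over all genes tested in all 27 libraries, the effect differed for 59.7% against LNCaP95 and for 50.3% against 22Rv1. Opposite calls were not counted over all genes, so the counts below have no background and mark no theme.

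Against LNCaP95 there were 19 such genes. Those that rose in LNCaP and fell in LNCaP95 differed by 1.62 for ELOVL1, 1.51 for ELOVL7, 0.73 for ERN1, 1.13 for FOSL2, 2.21 for HMOX1, 3.15 for ID2, 2.17 for IGF1R, 1.18 for IRS1, 1.59 for KLF6, 1.83 for KRT19, 0.83 for MPC2, 0.64 for MRPS18A, 1.11 for OSGIN1, 0.67 for PSMD8 and 0.49 for UQCR10. Those that fell in LNCaP and rose in LNCaP95 differed by -3.83 for FAM65B, -2.87 for SLC22A3, -3.58 for TLL1 and -2.13 for WLS. The group holds the IGF receptor and its adaptor, the BMP target ID2 and the elongases ELOVL1 and ELOVL7.

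Against 22Rv1 there were 9. Those higher in LNCaP and lower in 22Rv1 differed by 0.83 for EBP, 0.80 for ELOVL1, 1.71 for ELOVL7, 1.53 for IRS1, 0.82 for MPC2 and 1.11 for MVK. Those lower in LNCaP and higher in 22Rv1 differed by -0.74 for CLK2, -1.08 for DUSP4 and -1.55 for GDF15. ELOVL1, ELOVL7, IRS1 and MPC2, 4 genes, were opposite to LNCaP in both lines, and EBP and MVK are enzymes of sterol synthesis. The cause of these differences was not tested.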

How the results depend on the processing

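Over 2-fold, 773 genes were higher and 471 lower with edgeR's filterByExpr, and 1278 and 592 with no filter, because more genes of low level were tested. The hairpins differed for 1061 genes by DESeq2. Leaving out each library in turn gave 3041 to 3479 genes higher, 3033 to 3543 lower, 167 to 187 over 2-fold higher, 216 to 247 over 2-fold lower, 1049 to 1545 that differed between hairpins (1049 without CPSF1 sh2 replicate 2), 5740 to 6429 that differed from LNCaP95 and 4738 to 5475 that differed from 22Rv1. Replicate numbers were not taken to pair the samples, since over 9 same-numbered pairs the correlation of deviations was -0.0569 to 0.25, with 3 over 0.1. Of 18 cases of a sample set against the 3 of another group, the same number correlated best in 11. With the replicate number as a block, 3415 genes were higher, 3389 lower, 170 over 2-fold higher and 227 over 2-fold lower, 2164 differed between hairpins, 6227 differed from LNCaP95 and 5249 from 22Rv1. Among 3864 values of 184 named genes under the alternatives, 3860 kept their direction and side of the threshold, 4 of FANCB kept only the direction and 0 reversed. Nearly all these genes were picked from the same libraries for large changes without overlap. That they kept their direction thus largely follows from the choice and says little about other genes. Among list medians over 0.05 in size, 11 changed sign under an alternative; the widest moves were those of the neuronal list (-0.26 to 0.44) and the matrix list (-0.14 to 0.21) with no filter, where more genes of low level were counted. The unfolded protein list went from 0.10 to -0.03 with CPSF1 sh2 alone. With the trend with level per kb removed, fatty acid oxidation went from 0.06 to -0.008 and ER to Golgi transport from 0.06 to -0.002. The cytosolic synthetases went from 0.05 to -0.015 in that setting. The interferon list went from -0.05 to 0.02 with CPSF1 sh1 alone, and the MAPK list from 0.05 to -0.09 with filterByExpr. Depth limits genes of low level, and genes at 0 counts were not tested.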
